A study of Mus musculus with 4 samples.

Results

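Transcript levels of 8 intermediate filament genes were followed in cultured mouse spermatogonia. The genes were Nefl, Nefm, Nefh, Ina, Nes, Prph, Vim and Des, and they were found by their symbols among the 55421 genes of the count table. All 8 were among the 20232 genes with enough counts to be tested. The group was chosen by a value measured in these same libraries, the fall of Nefm in NRRA, which is among the largest of all genes, so the differences of the 8 genes between the groups are given below as a description and not as a test.

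The libraries came from primary cultures of spermatogonia of the CD1 background (spermatogonial stem cell or SSC cultures), with 2 libraries in each of 2 groups. The Veh libraries came from cultures without the treatment. The NRRA libraries came from cultures given nutrient restriction plus retinoic acid (RA), which in the study meant 2 days in a medium of 10% complete SSC medium and 90% Earle's balanced salt solution with 100 nM RA. The labels give N2 supplement, bFGF and GDNF (10 ng/ml of each growth factor) for all 4 cultures. In the study's media list, both growth factors come with the complete SSC medium, with more GDNF than the labels give. By that list the NRRA medium, with 10% complete medium, held less of both growth factors than the complete medium. By the study's methods, testes of 6-day-old pups were dissociated, and the germ cells were kept on irradiated mouse embryonic fibroblasts (MEFs) of CF1 mice. The RNA was not sorted by cell type, so each library holds germ cell and feeder cell RNA. The study describes the replicates of its sequencing experiments as independent biological ones. The labels do not tie a library to a culture or mouse. Nutrient restriction, any dilution of the growth factors and RA came together in these libraries, and the share of each in a difference cannot be told apart.

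Intermediate filaments are rope-like polymers of the cytoskeleton that give cells mechanical strength. In axons the light, medium and heavy neurofilament proteins, NF-L, NF-M and NF-H, assemble together with alpha-internexin or peripherin, and the long tails of NF-M and NF-H project from the filament and help to set the calibre of the axon. Vimentin is the usual intermediate filament of fibroblasts and other mesenchymal cells, desmin that of muscle, and nestin is best known from neural progenitors.

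Depth was similar in the 4 libraries, with 28022265 to 31604769 counts each, and a count of 3, used as the floor, was worth 0.0921 to 0.111 CPM (counts scaled to a common library size). The libraries carried germ cell RNA, since all 12 germ cell markers were tested and their summed level was 2391 and 2444 CPM in Veh and 2730 and 2735 CPM in NRRA, with 6 called higher and 5 lower and a median log2 fold change of 0.073. Fibroblast feeder RNA was abundant too, at 13475 and 13367 CPM over 25 markers in Veh and 10158 and 9872 CPM in NRRA. In the edgeR quasi-likelihood test over all genes, 27.9% of genes were called higher and 28.4% lower in NRRA at an adjusted p under 0.05, and the median log2 fold change was 0.00029.

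Of the 8 genes, 6 were called in either direction, against 56.4% of all genes tested. Among them 2 (Nefh and Prph) were called higher in NRRA, against 27.9% of all genes tested, and 4 (Nefm, Nefl, Vim and Nes) were called lower, against 28.4%. Ina and Des were not called. The 3 genes Nefm, Nefl and Prph were called with a change of at least 2-fold, as were 13.3% of all genes tested. The 2 Veh libraries and the 2 NRRA libraries did not overlap in CPM for 7 of the 8 genes, and for 76.7% of all genes tested. Since the choice of the genes used this contrast, nothing is read from these counts. In these unsorted cultures, fewer cells of a type and less RNA per cell cannot be told apart.

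**Figure D1:**
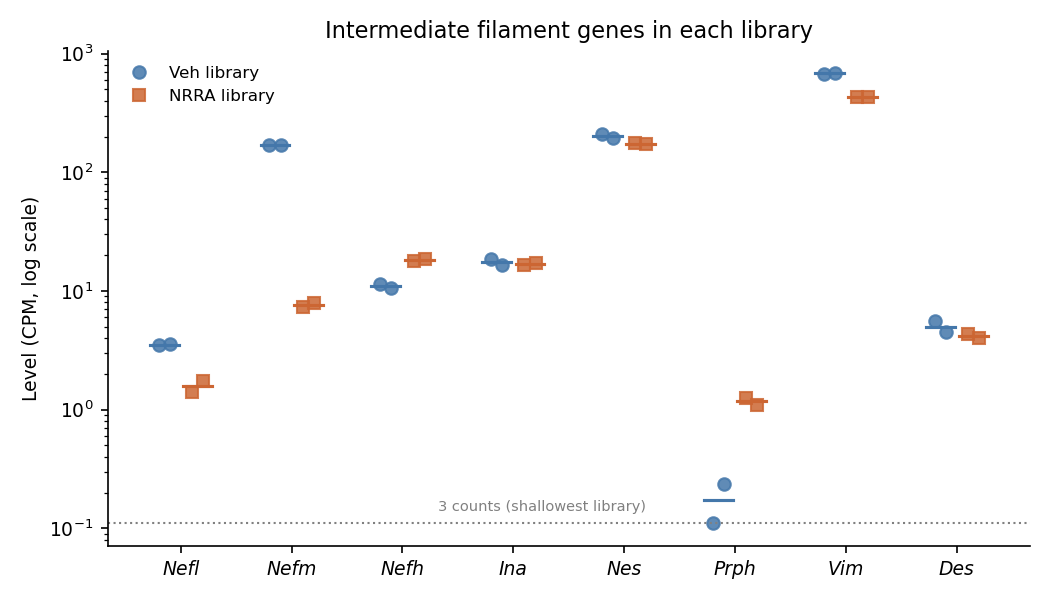
Level of each gene in each library, in CPM on a log axis. Circles are the 2 Veh libraries, squares the 2 NRRA libraries, short lines the group means, and the dotted line is the level of 3 counts in the shallowest library. Nefm drops from 169 CPM to under 8 CPM and Prph rises from near the dotted line, while Ina overlaps between the groups.

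Nefm, which encodes the medium neurofilament protein, is annotated at chr14:68082590-68124846 on the minus strand (GRCm38). The 2 Veh libraries held 4574 and 5030 counts of it, and each NRRA library 237. Scaled to depth, its level was 169 CPM in both Veh libraries, and 7.28 and 7.87 CPM in the NRRA libraries. Both NRRA libraries lay far below both Veh libraries, and within a group the higher library exceeded the lower by at most 1.08-fold. The log2 fold change was -4.48 ± 0.055 (SE, n = 2 per group), a 22.3-fold lower level in NRRA. Among all genes tested this was the change ranked 50 from the lowest. Among the 15245 protein-coding genes tested, ordered by level per length, Nefm moved from percentile 87.5 in Veh to percentile 24 in NRRA.

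Nefl encodes the light chain NF-L, the subunit on which neurofilament assembly depends. It is annotated at chr14:68083863-68089095 on the plus strand, inside the annotated span of Nefm. It was far less abundant, with 95 and 106 counts (3.50 and 3.56 CPM) in the Veh libraries against 46 and 53 (1.41 and 1.76 CPM) in the NRRA libraries. Both NRRA libraries were below both Veh libraries, with a log2 fold change of -1.16 ± 0.22. The ratio of the pooled counts, corrected for depth, was 0.447, with a 95% counting interval (exact, conditional binomial) of 0.348 to 0.571. The difference between the log2 fold changes of Nefm and Nefl was -3.32 ± 0.22, so the fall of Nefm was the larger by that amount.

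The 2 genes share 1108 exonic bases on opposite strands, at chr14:68083863-68084970. All of them belong to the last exon of 1 annotated transcript, Nefm-202, whose first exons are those of the shorter Nefm-201. Nefm-201, at chr14:68119283-68124846, shares no exonic base with Nefl. The shared stretch makes up 32.8% of the exonic bases of Nefl and 61.9% of its coding bases, against 19.2% of the exonic bases of Nefm. The strand setting used in counting was not given in the sources used here, so the effect of the overlap on either count was not tested. The counts of Nefl were 2.08% and 2.11% of those of Nefm in Veh, and 19.4% and 22.4% in NRRA. Taken as 1 locus, Nefm and Nefl summed to 172 and 173 CPM in Veh and to 8.69 and 9.63 CPM in NRRA. The log2 ratio of these sums was -4.23. Another division of the counted reads between the genes leaves the sum unchanged by its making. Any reads of the shared stretch that were counted for neither gene would be missing from it, which was not tested.

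**Figure D2:**
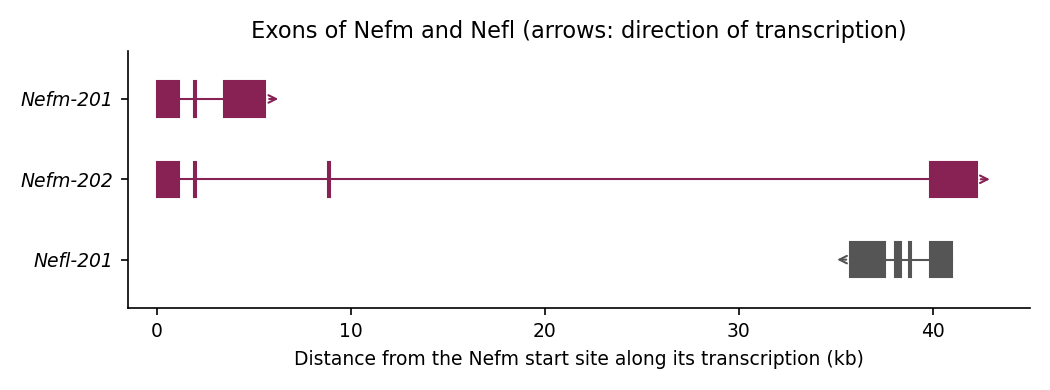
Exons (boxes) of the annotated transcripts of Nefm and Nefl, in kb from the start site of Nefm along its direction of transcription. Arrows give the direction of transcription. The last exon of Nefm-202 overlaps the first exon of Nefl, which runs the other way, over 1108 bases, and Nefm-201 ends well before Nefl.

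Nefh, at chr11:4938754-4948064 on the minus strand, encodes the heavy neurofilament protein, and it moved in the other direction. It was counted 310 and 317 times in the Veh libraries and 579 and 564 times in the NRRA libraries. In CPM these were 11.4 and 10.7 in Veh and 17.8 and 18.7 in NRRA, with no overlap between the groups. The log2 fold change was 0.73 ± 0.093, a 1.65-fold higher level in NRRA. No exonic base of Nefh is shared with another gene.

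The make-up of the triplet was therefore different in the 2 groups when levels were compared per length, in RPKM (CPM per kilobase of annotated exons). In Veh, Nefm made up 88.2% and 88.7% of the summed level of the 3 genes, Nefh 8.66% and 8.09%, and Nefl 3.13% and 3.20%. In NRRA, Nefh made up 72.6% and 71.4%, Nefm 20.5% and 20.7%, and Nefl 6.82% and 7.92%. The sum itself went from 33.1 and 33.0 RPKM in Veh to 6.13 and 6.57 RPKM in NRRA. Nefm exceeded Nefh by 10.2-fold and 11.0-fold in the Veh libraries. In NRRA the order was turned round, and Nefh exceeded Nefm by 3.54-fold and 3.44-fold. Nefm also exceeded Nefl by 28.2-fold and 27.7-fold in Veh, against 3.01-fold and 2.61-fold in NRRA. With the longest annotated transcript as the length, the order was the same but the values moved. Nefm then exceeded Nefh by 16.0-fold and 17.2-fold in Veh, and Nefh exceeded Nefm by 2.25-fold and 2.19-fold in NRRA. Nefm then made up 92.2% and 92.5% of the triplet in Veh and 28.9% and 29.1% in NRRA.

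**Figure D3:**
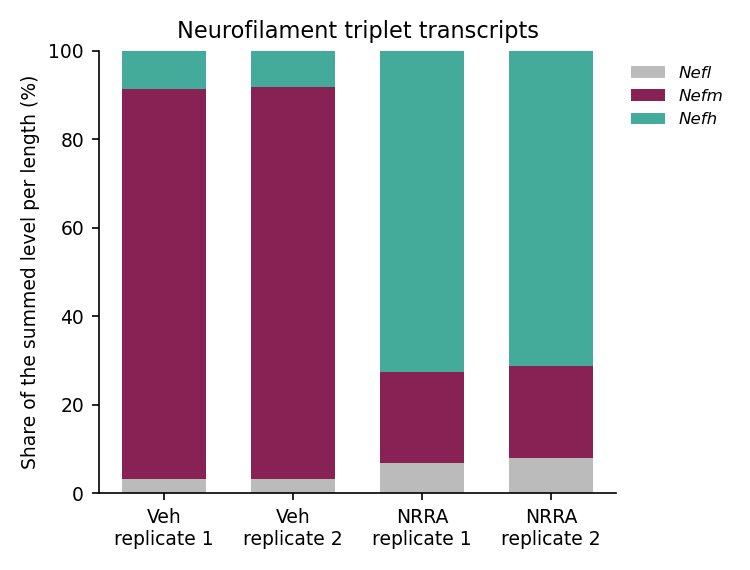
Share of Nefl, Nefm and Nefh in their summed level per length (RPKM), in percent, for each of the 4 libraries. Nefm takes over 88% in both Veh libraries and under 21% in both NRRA libraries, where Nefh takes over 71%, with all annotated exons as the gene length.

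Ina encodes alpha-internexin, which joins neurofilaments as a further subunit in the central nervous system and is made early in neuronal development. It lies at chr19:47014698-47025327 on the plus strand. The Veh libraries gave 507 and 489 counts (18.7 and 16.4 CPM), and the NRRA libraries 537 and 520 (16.5 and 17.3 CPM). The groups overlapped, since both NRRA libraries lay between the Veh libraries. The log2 fold change of -0.056 ± 0.087 was smaller than its error, and its sign turned to 0.034 when libraries were scaled by size only and to 0.038 without Veh replicate 1. Ina shares 456 exonic bases, 14.1% of its own, with the oppositely transcribed Nt5c2, a gene for a nucleotidase. Nt5c2 had 2306 to 2744 counts in the libraries and a log2 fold change of 0.017 ± 0.041.

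Nes encodes nestin, a large intermediate filament protein that copolymerises with vimentin. It is annotated at chr3:87971078-87980451 on the plus strand, and its level was high in all 4 libraries. Veh cultures had 5650 and 5776 counts (208 and 194 CPM), and NRRA cultures 5711 and 5211 (175 and 173 CPM). The NRRA libraries were slightly below the Veh libraries. The log2 fold change was -0.21 ± 0.033, and it lay between -0.26 and -0.16 when 1 library was left out.

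Prph encodes peripherin, the type III filament protein of peripheral neurons and of neurons that project out of the central nervous system. It lies at chr15:99055174-99058978 on the plus strand. Prph was nearly undetected in Veh, with 3 and 7 counts, and reached 41 and 33 counts in NRRA. In CPM these were 0.111 and 0.235 against 1.26 and 1.10. The ratio of the pooled counts, 74 in NRRA over 10 in Veh, was 6.72 after correction for depth, with a 95% counting interval of 3.45 to 14.6. The fitted log2 fold change was 2.72 ± 0.49, ranked 166 from the highest among all genes tested. Prph passed the filter on low counts through its NRRA libraries alone. Veh replicate 2 decided much of its size, for without it the log2 fold change was 3.37. Even in NRRA its level was only 0.589 ± 0.058 RPKM (SD, n = 2), percentile 15.3 of protein-coding genes.

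The promoter set used held sequences upstream of the start site for 5 of the 8 genes (Ina, Prph, Vim, Nes and Des). It had no entry for Nefm, Nefl or Nefh, whose windows were therefore not searched. The 250 bases before the start site are shown for Prph, whose level rose the most, and for Ina, whose groups overlapped. They are from RefSeq (GRCm38.p6), on the plus strand, at chr15:99054924-99055173 for Prph and chr19:47014431-47014680 for Ina. Capitals mark matches to the TATA box TATAAA and to the GC box GGGCGG, which reads CCGCCC on the other strand.
Prph: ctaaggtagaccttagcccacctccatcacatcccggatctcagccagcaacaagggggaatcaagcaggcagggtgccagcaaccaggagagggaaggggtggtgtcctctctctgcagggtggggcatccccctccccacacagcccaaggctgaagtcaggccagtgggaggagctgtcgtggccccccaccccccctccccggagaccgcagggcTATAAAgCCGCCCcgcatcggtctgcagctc
Ina: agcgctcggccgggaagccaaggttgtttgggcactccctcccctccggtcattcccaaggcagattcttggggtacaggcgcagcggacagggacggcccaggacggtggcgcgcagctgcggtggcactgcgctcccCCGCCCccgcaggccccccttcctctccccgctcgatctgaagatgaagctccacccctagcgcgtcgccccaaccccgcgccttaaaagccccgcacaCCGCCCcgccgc
In Prph, TATAAA began at position -31 and CCGCCC at position -24, counted back from the last base before the start site as -1. In Ina, CCGCCC began at positions -111 and -12, and the window held no TATAAA. The retinoid receptor half-site AGGTCA and the AP-1 site TGANTCA were also searched on both strands, with no match in the windows of the 5 genes. Of 32851 mouse promoters searched over the same 250 bases, 12.4% held TATAAA, 32.7% GGGCGG, 14% AGGTCA and 6.75% TGANTCA. None of these 4 motifs overlapped another in the windows shown. A match describes the letters of the window and not the binding of a factor.

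Vim encodes vimentin and had the highest level of the 8 genes in all 4 libraries. It is annotated at chr2:13573927-13582826 on the plus strand. It had 18353 and 20304 counts (677 and 682 CPM) in the Veh libraries, compared with 14001 and 13028 (430 and 433 CPM) under NRRA. The groups were clearly apart, and within each group the libraries differed by less than 1%. The log2 fold change was -0.66 ± 0.023, a 1.58-fold lower level in NRRA.

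Des encodes desmin, the filament protein that ties myofibrils together in muscle, at chr1:75360329-75368579 on the plus strand. The Veh libraries held 150 and 134 counts (5.53 and 4.50 CPM), and those of NRRA 142 and 122 (4.36 and 4.05 CPM). Both NRRA libraries were below both Veh libraries, but the gap between the nearest of them was smaller than the spread between the Veh libraries. The log2 fold change was -0.25 ± 0.16, and the ratio of the pooled counts was 0.844, with a 95% counting interval of 0.711 to 1.00. A difference in Des was not detected with these 4 libraries. It shares 220 exonic bases, 5.86% of its own, with the antisense gene Gm15179, which had 0 counts in all 4 libraries, and the effect of that overlap on the count of Des was not tested.

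The order of the levels per length was Vim (143 RPKM), Nes (31.4), Nefm (29.2), Ina (5.42), Nefh (2.77), Des (1.34), Nefl (1.05) and Prph (0.0865) in Veh, and no neighbours in that order overlapped between libraries. In NRRA the order was Vim (90.9 RPKM), Nes (27.2), Ina (5.21), Nefh (4.57), Nefm (1.31), Des (1.12), Prph (0.589) and Nefl (0.469), again without overlap of neighbours. The order of Nes and Nefm in Veh depended on the length used. With the longest annotated transcript as the length in place of all exons, Nefm stood at 45.9 RPKM and Nes at 32.8 RPKM. Vimentin transcripts took 66.2% and 67.4% of the summed RPKM of the 8 genes in Veh and 69.2% in both NRRA libraries. The share of Nefm in that sum was 13.5% and 13.7% in Veh and 0.961% and 1.03% in NRRA.

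Markers of cell types in which these filaments are typical moved between the groups as well. Of the 25 fibroblast feeder markers, 21 were called lower and 2 higher in NRRA, with a median log2 fold change of -0.41, and the log2 ratio of their summed level was -0.42, against the log2 fold change of -0.66 for Vim. The collagen gene Col6a3 (-2.11 ± 0.053) and the metalloproteinase inhibitor Timp1 (-1.52 ± 0.035) fell the most, and the growth factor receptor Pdgfra (0.98 ± 0.064) and the collagen gene Col3a1 (0.61 ± 0.033) rose the most among markers named by a minimum mean log2 CPM of 1. The part of feeder RNA in the lower Vim and Nes levels was not tested.

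Smooth muscle and pericyte markers summed to 830 and 829 CPM in Veh and 440 and 456 CPM in NRRA, with 8 of 10 called lower and 1 higher and a median log2 fold change of -0.56. Most of the drop was in Mcam, an adhesion molecule (485 to 206 CPM in the group means), without which they summed to 344 and 346 CPM against 237 and 247 CPM. The libraries do not show which cells, germ cells included, carried the Mcam RNA. Muscle markers summed to 135 and 133 CPM against 88.9 and 88.5 CPM, and 6 of the 9 tested among 15 were called lower and 1 higher. Without Actn2 they summed to 95.9 and 95.8 CPM against 81.2 and 78.7 CPM. Among those called were Actn2, a sarcomeric actinin (-2.12 ± 0.090), and Pax7, of muscle stem cells (-1.06 ± 0.17), which were lower, and Ttn, the gene for titin (0.57 ± 0.078), which was higher, while the myogenic regulators Myf5 and Myod1 had at most 1 and 3 counts in a library. Testis somatic markers summed to 44.5 and 48.7 CPM against 30.1 and 29.4 CPM, with 2 of 6 tested called higher and 1 lower. The lower one was Sox9, a Sertoli cell factor (28.2 to 9.38 CPM in the group means), and without it they summed to 17.4 and 19.4 CPM against 20.8 and 20.0 CPM. The sums without a leading gene here and for the neural lists were chosen after the data had been seen. The part of these cell types in the levels of Des and Vim was not tested.

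**Figure D4:**
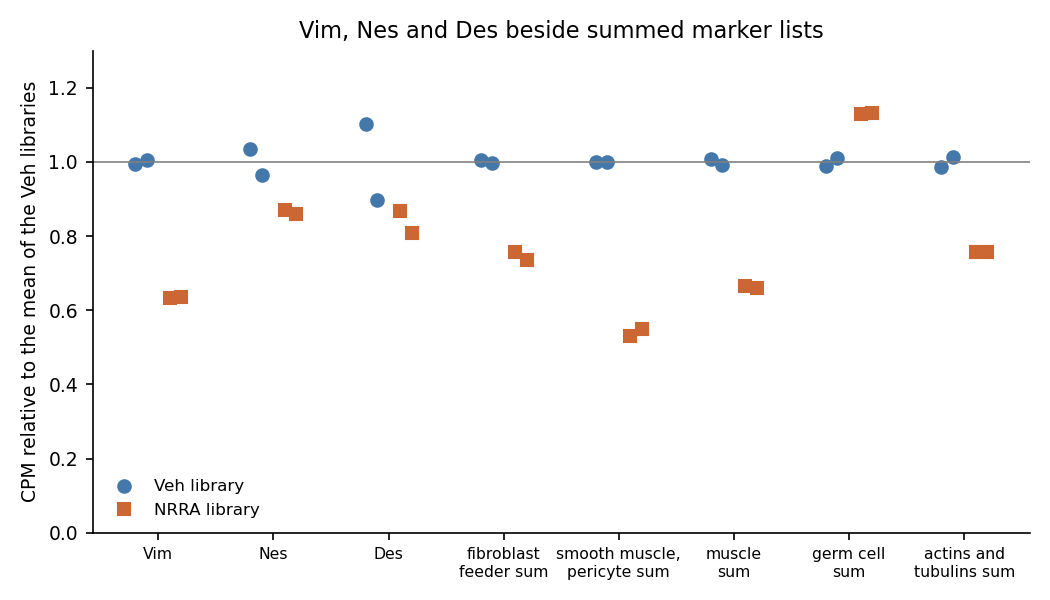
Level of Vim, Nes and Des and the summed level of 5 gene lists in each library, in CPM divided by the mean of the 2 Veh libraries. Circles are Veh libraries and squares NRRA libraries. Vim, the feeder markers, the smooth muscle and pericyte markers, the muscle markers and the actins and tubulins all lie below the Veh mean in NRRA, and the sum of the germ cell markers lies above it.

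Neuron markers were present at low levels, and several were near the floor. All 15 summed to 44.8 and 44.6 CPM in Veh and 82.0 and 79.1 CPM in NRRA, and 3 were at or under the floor in all 4 libraries. Of the 9 tested, 4 were called higher and 2 lower, with a median log2 fold change of 0.53. The 2 largest rises at the level named above were those of Pou4f1, a transcription factor of sensory neurons (10.2 to 30.2 CPM in the group means, 1.57 ± 0.083), and Slc17a7, a glutamate transporter (20.2 to 36.5 CPM, 0.86 ± 0.068). The markers called lower, named with their values known, were Gad1, an enzyme of GABA synthesis, with 80 and 77 counts in the Veh libraries against 7 and 1, and Snap25, a synaptic fusion protein, with 15 and 41 against 5 and 4. Without Pou4f1 the log2 ratio of the summed level of the list was 0.54, against 0.85 with it. Slc17a6, another glutamate transporter, and Th, of catecholamine synthesis, had at most 2 and 3 counts in a library. Neural progenitor and glia markers, of which 3 of 7 tested were called lower and 0 higher, summed to 79.0 and 84.3 CPM in Veh and 24.0 and 23.2 CPM in NRRA, mostly from Sox2 (72.3 and 15.3 CPM in the group means). Without Sox2 they summed to 8.78 and 9.85 CPM against 8.87 and 7.74 CPM. The part of neural cells in the levels of the neurofilament genes, of Prph and of Nes was not tested.

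The other genes of the intermediate filament family, keratins, lamins and smaller groups, were a list of 27, of which 15 were tested. Of these, 7 (46.7%) were called higher and 2 (13.3%) lower, with a median log2 fold change of 0.28. Lmna, the gene for the nuclear lamins A and C, was called lower (-0.98 ± 0.033), as was the keratin-related Krt222 (-1.37 ± 0.20). The B-type lamin genes Lmnb1 (0.28 ± 0.034) and Lmnb2 (0.28 ± 0.057) were called higher, as was Synm, the gene for synemin, a partner of desmin and vimentin (0.37 ± 0.066). Krt19, a keratin of simple epithelia (0.87 ± 0.12), and Bfsp1, the lens filament protein filensin (0.56 ± 0.16), had the largest rises among genes above the level named above. Below it, Krt13 went from 5 and 2 counts to 72 and 41. Lmnb1, Lmnb2, Synm and Krt13 were named after their values had been seen.

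**Figure D5:**
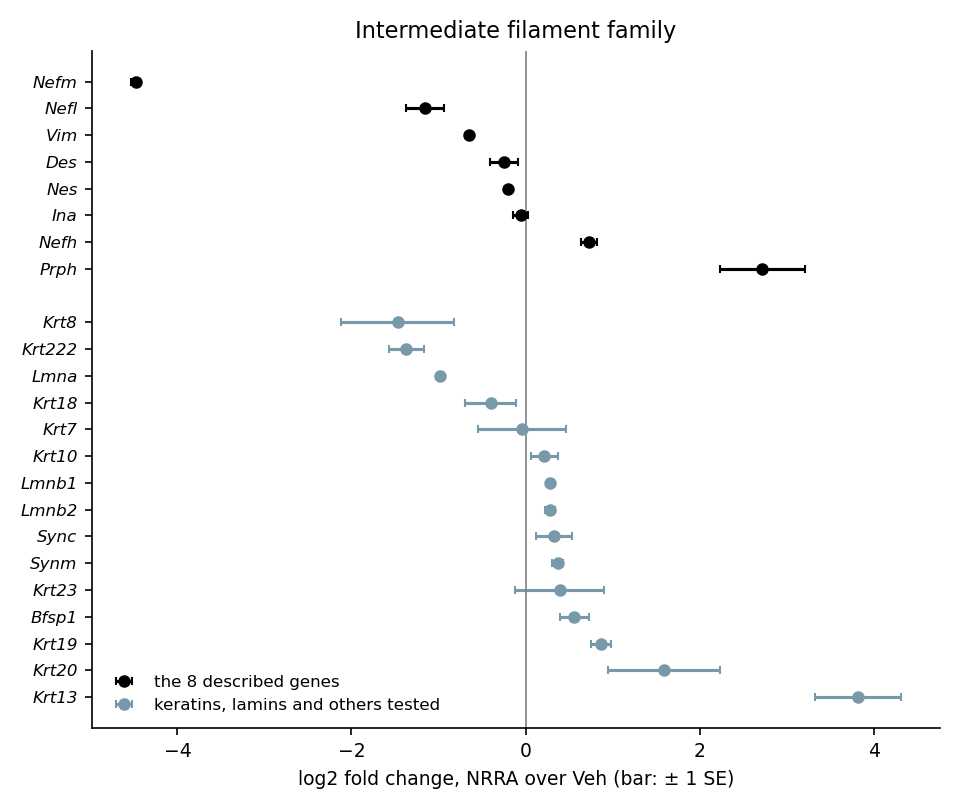
Log2 fold change (NRRA over Veh) of the 8 genes (black) and of the 15 other intermediate filament genes tested (blue), with bars of 1 standard error. Nefm lies alone near -4.5, Prph and Krt13 lie at the high end, and most lamins and keratins lie within 1 unit of 0.

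Genes for proteins that link filaments to other structures or turn them over moved in both directions, with 11 of 24 called higher and 10 lower and a median log2 fold change of 0.077. The plakins Evpl (envoplakin, 2.17 ± 0.11) and Ppl (periplakin, 1.91 ± 0.20) rose the most. Syne2, which ties the nuclear envelope to the cytoskeleton (-1.27 ± 0.034), and Cryab, a small heat shock protein that binds desmin (-1.01 ± 0.069), fell the most.

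Axon cytoskeleton and growth genes also moved both ways, with 10 of the 23 tested among 25 called higher and 7 lower and a median log2 fold change of 0.052. They ranged from Elavl3, a neuronal RNA-binding protein (3.12 ± 0.14), and Map2, a dendritic microtubule-associated protein (2.50 ± 0.13), to Gap43, a growth cone protein (-1.71 ± 0.17), and Crmp1, a mediator of growth cone signalling (-2.31 ± 0.071). Of 16 actin and tubulin genes, 11 were called lower and 2 higher, with a median of -0.33.

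The genes whose pattern over the 4 libraries was most like that of Nefm were sought among the 11326 genes that averaged at least 3 in log2 CPM, by the distance between log2 CPM values centred on each gene's mean. The nearest was Sphk1, a sphingosine kinase gene, at a distance of 0.0745. Its level was 113 and 112 CPM in Veh and 5.13 and 5.25 CPM in NRRA. Next came Egr2 (0.240), an early growth response transcription factor, Tcl1 (0.244), a coactivator of AKT kinases, Lhx1 (0.278), a LIM-homeodomain factor, and Adgrg1 (0.478), an adhesion G protein-coupled receptor. Their log2 fold changes lay between -4.60 and -4.01, on either side of that of Nefm. With 4 libraries in 2 groups, likeness of this kind is mostly a likeness in the size of the fall.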

How the data were processed

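The authors deposited raw counts of reads per gene for the 4 libraries, in whole numbers and without normalization. The submitters' processing notes name bcl2fastq, STAR 2.6.1c, featureCounts 1.6.4 and the build mm10. The annotation release and the strand setting were not given in the sources used here. The study's methods describe stranded oligo-dT libraries with a Tecan kit, whereas the labels name Illumina TruSeq and NuGEN kits. The study used DESeq2 for differential expression.

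Groups came from the treatment labels and replicate numbers from the titles. Columns were matched to samples by the descriptions, which number the Veh libraries 1 higher than the titles. Counts were fitted over all genes with edgeR 4.0.16 (filterByExpr, TMM scaling, robust quasi-likelihood F test, Benjamini-Hochberg adjustment, threshold 0.05). The common biological coefficient of variation was 2.61%, a small spread between libraries of a group. The labels do not show whether that spread covers separate cultures, so the standard errors and calls describe these libraries only. Standard errors were derived from the F statistic. RPKM is CPM per kilobase of exon union in GENCODE M21 (GRCm38). Counting intervals cover counting error only.

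The 8 genes and the 11 gene lists were chosen with earlier results of these data known. Genes named from a list are among the 2 at each end of the log2 fold changes of those called that averaged at least 1 in log2 CPM, or are markers near the floor. Also named are the 8 genes, their overlapping genes and the 5 genes most like Nefm. Others are named as such. Alternatives were DESeq2, other scalings, no low-count filter, no robust estimation, a replicate block, each library left out, and another gene length. The fit was also run on simulated counts in which few genes changed, all of them well counted. That run does not cover genes with few counts, such as Prph, or data in which most genes are called.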

Additional observations from a re-analysis of the deposited data

How the results depend on the processing

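The 80 log2 fold changes of the 8 genes under 10 alternatives held the same sign and the same call in 78 cases. Ina alone reversed, to 0.034 with library size only and to 0.038 without Veh replicate 1, and it was not called in either, and with each library left out in turn it ranged from -0.15 to 0.038. In each alternative 2 of the 8 genes were called higher and 4 lower. With 1 library left out, the log2 fold change of Nefm lay between -4.54 and -4.42, that of Prph between 2.31 and 3.37 and that of Des between -0.39 and -0.097. Scaling by library size only moved the median of all genes to 0.090 and the calls to 6962 higher and 4593 lower, so that 60.2% of calls were higher against 49.6%, and the log2 fold change of Nes was then -0.12. The DESeq2 test called 4529 genes higher and 4625 lower. With the replicate number as a replicate block, 5772 genes were called higher and 5836 lower, against 5654 and 5752, and no call among the 8 genes changed. Deviations of the libraries numbered 1 correlated at 0.029 over 11326 genes. This 1 correlation cannot show whether libraries of the same number share a culture or batch. With the longest transcript as the gene length, the Veh level per length moved for Nefm (45.9 RPKM), Vim (232 RPKM) and Des (1.66 RPKM). Low counts limit Prph in Veh, with 10 counts in all. The counting interval of Des reached 1.00, and its log2 fold change also moved with the Veh library left out.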
